A study of Mus musculus with 59 samples.

Results

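The 7 genes described here are the subunits of respiratory complex I that the mouse mitochondrial genome encodes, mt-Nd1, mt-Nd2, mt-Nd3, mt-Nd4, mt-Nd4l, mt-Nd5 and mt-Nd6. They were chosen by gene name from the 18088 genes of the deposited table. The rule used no measured value, but earlier results of these data were known when the choice was made. All 7 are in the table and all 7 passed the filter on low values. The libraries are bulk poly(A) RNA-seq of the prefrontal cortex of C57BL/6J mice, heterozygous (HT) for Naa15 or wild type (WT), at postnatal day 25. Naa15 encodes the auxiliary subunit of the NatA N-terminal acetyltransferase. Lithium, fluoxetine or vehicle reached the pups through the mother's milk from postnatal day 3 to 24, so every group, vehicle included, was taken from suckling pups. The 12 groups, formed by 2 genotypes, 3 treatments and 2 sexes, hold 5 libraries each, except the HT vehicle males, which hold 4, and together they make 59 libraries.

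The labels give neither the kind of Naa15 allele nor the drug doses, and they do not say which pups shared a litter or a mother. The p-values therefore measure the spread between these libraries, which may be smaller than that between independently treated litters. The deposited values are read counts divided by a size factor for each library, called normalised counts below, and the reads recovered from them numbered 25.0 to 32.9 M per library (median 29.1 M). Naa15 itself did not separate the genotypes: under vehicle its log2 difference, HT minus WT, was -0.03 ± 0.041 (SE, adjusted p = 0.895), so it gives no check of the genotype labels. Of the 59 libraries, the 5 of HT females given fluoxetine stood apart from the other fluoxetine libraries, and calls that pool them with other fluoxetine libraries are therefore also given without them.

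Complex I passes electrons from NADH to ubiquinone at the mitochondrial inner membrane and pumps protons as it does so. Most of its subunits are encoded in the nucleus and imported, but the hydrophobic core of its membrane arm is built from the mitochondrially encoded subunits. Each strand of mitochondrial DNA is transcribed as a long precursor that is cut into the mature RNAs, largely at the transfer RNAs that lie between genes. Neurons rely heavily on oxidative phosphorylation, and the cortex has abundant mitochondrial RNA.

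The members differ in length and in strand, and both bear on what follows. In GRCm38 (GENCODE M21) mt-Nd1 lies at chrM:2751-3707, mt-Nd2 at chrM:3914-4951, mt-Nd3 at chrM:9459-9806, mt-Nd4l at chrM:9877-10173, mt-Nd4 at chrM:10167-11544 and mt-Nd5 at chrM:11742-13565, all on the plus strand. mt-Nd6 is the exception, at chrM:13552-14070 on the minus strand, and thus comes from the other precursor. The shortest genes are mt-Nd4l (297 bases), mt-Nd3 (348 bases) and mt-Nd6 (519 bases), followed by mt-Nd1 (957 bases), mt-Nd2 (1038 bases), mt-Nd4 (1378 bases) and mt-Nd5 (1824 bases). Each is a single exon.

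Adjacent members overlap at 2 places, shown here because reads from such bases belong to more than a single gene. The end of mt-Nd4l and the start of mt-Nd4, which are translated from a shared mRNA, overlap by 7 bases, given in capitals within chrM:10157-10183, plus strand. The ends of mt-Nd5 and mt-Nd6, on opposite strands, overlap by 14 bases, given in capitals within chrM:13542-13575, plus strand.
mt-Nd4l and mt-Nd4: acctactacaATGCTAAaaattattct
mt-Nd5 and mt-Nd6: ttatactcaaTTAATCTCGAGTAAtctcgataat

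The nuclear genome also carries copies of mitochondrial DNA, and a block of them on chromosome 1 is annotated as unprocessed pseudogenes with rows of their own in the deposited table. They matter most for mt-Nd3 and mt-Nd4l. Of the 318 stretches of 31 bases in mt-Nd3, 312 (98.1%) also occur in another annotated transcript, and for mt-Nd4l this holds for 264 of 267 (98.9%). For mt-Nd1 it holds for 0 of 927, for mt-Nd2 136 of 1008, for mt-Nd4 846 of 1348, for mt-Nd5 302 of 1794 and for mt-Nd6 36 of 489. The copy of mt-Nd3, Gm28438 (chr1:24612775-24613119, minus strand), is identical over 344 of 345 bases, the difference being T3C, counted from the first base of mt-Nd3. The copy of mt-Nd4l, Gm10222 (chr1:24612407-24612700, minus strand), is identical over all 294 of its bases, so the mt-Nd4l stretch below stands for both. The opening 120 bases of each transcript (GENCODE M21) show how little a read has to go by, with the differing base in capitals.
mt-Nd3, chrM:9459-9578, plus strand: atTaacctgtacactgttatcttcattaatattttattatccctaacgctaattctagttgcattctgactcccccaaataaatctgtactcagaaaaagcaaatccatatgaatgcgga
Gm28438, chr1:24613000-24613119, minus strand: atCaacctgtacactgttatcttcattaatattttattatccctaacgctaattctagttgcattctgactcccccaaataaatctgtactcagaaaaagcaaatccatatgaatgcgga
mt-Nd4l, chrM:9877-9996, plus strand: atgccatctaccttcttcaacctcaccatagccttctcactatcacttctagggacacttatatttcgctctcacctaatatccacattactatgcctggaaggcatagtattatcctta

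The deposited table divided the reads of these pairs very unevenly. Gm28438 received 77.2% to 93.9% (median 88.6%) of the reads given to it and mt-Nd3 together. Gm10222 received between 0% and 82.1% (median 46.0%) of the reads given to it and mt-Nd4l. The mt-Nd4 copy, Gm28439, identical to it over all 876 of its bases, was listed at 0 in every library. With the copy added back, the SD of log2 values within groups was 0.20 for mt-Nd3, where it was 0.46 as deposited, and 0.28 for mt-Nd4l, where it was 0.59. It was 0.17 for mt-Nd1, 0.18 for mt-Nd2, 0.19 for mt-Nd4, 0.21 for mt-Nd5 and 0.37 for mt-Nd6. Values of mt-Nd3 and mt-Nd4l are therefore given both as deposited and with the copy added, the addition having been chosen after the values were seen. Reads that come from the nuclear copy itself cannot be told apart from those of the mitochondrial gene in this sum.

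**Figure D1:**
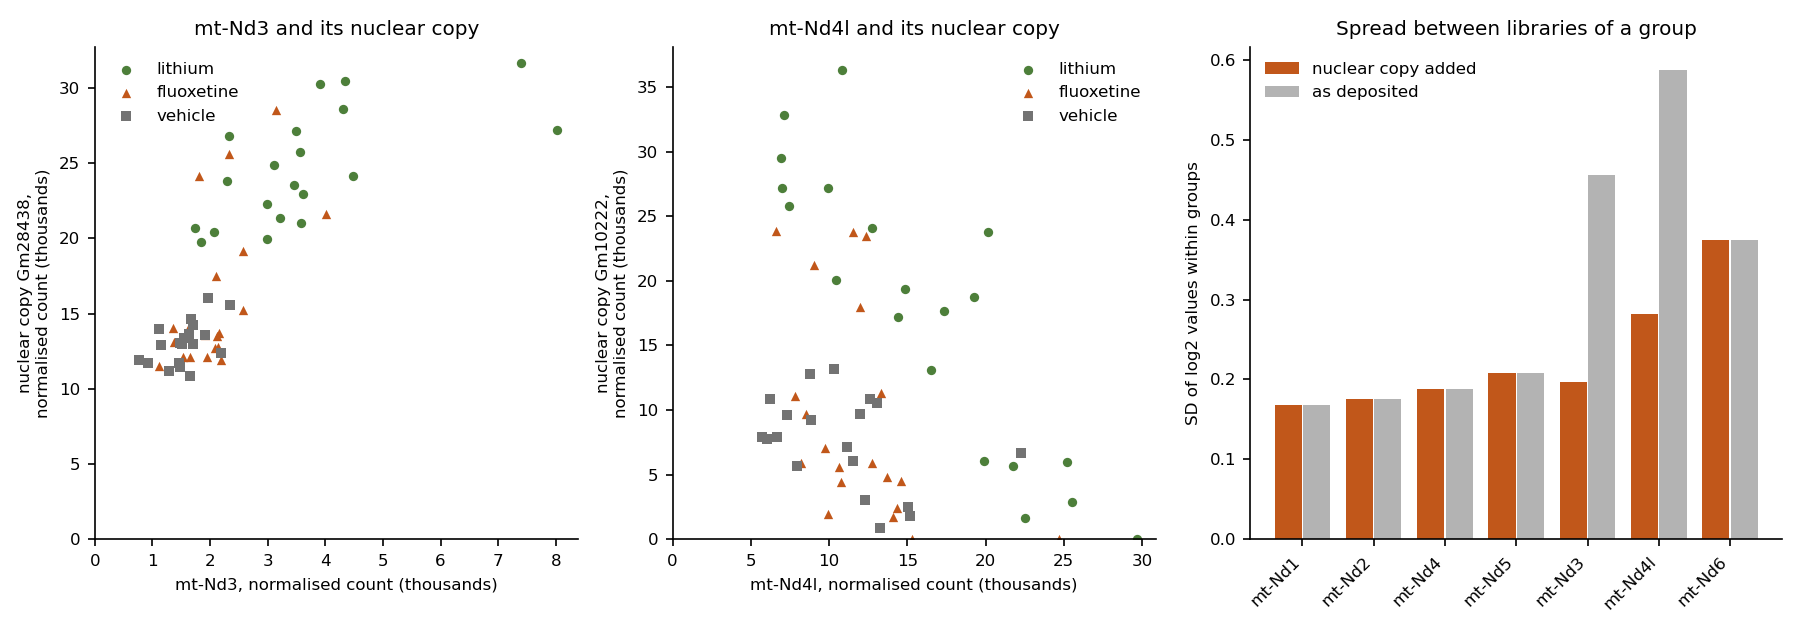
Normalised counts of mt-Nd3 against its copy Gm28438 and of mt-Nd4l against its copy Gm10222, 1 point per library coloured by treatment, and the SD of log2 values within the 12 groups for all 7 members, as deposited and with the copy added. With the copy added the SD is 0.20 for mt-Nd3, where it is 0.46 as deposited, and 0.28 for mt-Nd4l, where it is 0.59.

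Per length, the members spanned a wide range of levels. The median over the 59 libraries was 172100 normalised counts per kilobase for mt-Nd1, 144155 for mt-Nd4, 104801 for mt-Nd2 and 76801 for mt-Nd5. mt-Nd6 had 3179 normalised counts per kilobase, the lowest of the 7. All are levels in poly(A) RNA, and whether poly(A) selection captured the 7 RNAs alike was not tested. With their copies added, mt-Nd4l had 79248 and mt-Nd3 46815 normalised counts per kilobase, where the deposited values gave 40409 and 5983. Summed, the 7 members took 1.58% to 3.61% (median 2.12%) of a library's deposited counts and 30.2% to 35.3% of the counts of the chromosome M genes in the table.

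Libraries of the same group that were high for one of the larger members were high for the others. After group means were removed, the log2 values of mt-Nd1 correlated over the 59 libraries with those of mt-Nd4 at r = 0.99, of mt-Nd2 at 0.98, of mt-Nd5 at 0.92 and of mt-Nd6 at 0.71. With mt-Nd3 the correlation was 0.67 as deposited and 0.89 with its copy, and with mt-Nd4l 0.17 as deposited and 0.60 with its copy. These values share each library's scaling factor and its total, and are a description. Copies added, HT lithium female 5, HT fluoxetine female 2, HT vehicle female 4, HT vehicle male 1 and WT fluoxetine male 4 each had the highest value of their group for all 7 members.

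Lithium was the treatment under which the members were higher. Of the 7, 6 were called higher in lithium than in vehicle libraries and 0 lower, where 32.7% of all 17891 tested genes were called higher, so a call alone does not set a gene apart in this comparison. The median log2 difference of the members was 0.49, against 0.02 over all tested genes. mt-Nd6 was the member without a call. Called here means a Benjamini-Hochberg adjusted p below 0.05 over all tested genes in a limma fit to log2(value + 1), and differences are on that scale.

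The member with the highest level per kilobase, mt-Nd1, places its protein where the membrane arm meets the arm that takes up NADH, beside the ubiquinone site. Its lowest, median and highest values were 169, 211 and 281 k (1 k is 1000 normalised counts) in the 20 lithium libraries, against 132, 146 and 185 k in the 19 vehicle libraries. All 20 lithium libraries lay above the vehicle mean of their own genotype and sex, and 18 lay above the highest vehicle library. The log2 difference was 0.52 ± 0.054 (SE, adjusted p = 2.29e-12).

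mt-Nd2, mt-Nd4 and mt-Nd5 encode the large antiporter-like subunits that carry proton channels. mt-Nd2 had 105, 137 and 185 k (lowest, median, highest) under lithium, against 82.5, 96.9 and 122 k under vehicle. mt-Nd4 had 186, 238 and 333 k under lithium and 157, 182 and 234 k under vehicle. The 2 ranges overlapped for both genes, with 17 of 20 lithium libraries above the highest vehicle library for mt-Nd2 and 10 of 20 for mt-Nd4. mt-Nd5 had 131, 157 and 229 k under lithium and 108, 125 and 165 k under vehicle, with 9 of 20 lithium libraries above the highest vehicle library. Log2 differences were 0.49 ± 0.055 (adjusted p = 3.18e-11) for mt-Nd2, 0.38 ± 0.060 (adjusted p = 1.72e-07) for mt-Nd4 and 0.36 ± 0.065 (adjusted p = 2.75e-06) for mt-Nd5.

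mt-Nd3 and mt-Nd4l encode small subunits that link the ubiquinone site to the proton channels; a loop of the ND3 protein moves between the active and the resting form of the enzyme. With Gm28438 added, mt-Nd3 had 21.6, 27.5 and 39.1 k (lowest, median, highest) under lithium, against 12.5, 14.6 and 18.0 k under vehicle. The 2 sets of libraries did not overlap. The share of all genes that separate as fully was not counted, here or in the comparisons below. With Gm10222 added, mt-Nd4l had 24.2, 33.7 and 47.1 k under lithium, against 13.6, 17.5 and 28.9 k under vehicle, and 16 of 20 lithium libraries lay above the highest vehicle library. With the copies, log2 differences were 0.94 ± 0.061 (adjusted p = 2.92e-19) for mt-Nd3 and 0.88 ± 0.087 (adjusted p = 6.62e-13) for mt-Nd4l, and 32.7% of the 17883 genes then tested were called higher.

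As deposited, the same 2 genes gave other sizes. mt-Nd3 had 1739, 3469 and 8017 normalised counts under lithium, against 775, 1541 and 2340 under vehicle, a log2 difference of 1.18 ± 0.14 (adjusted p = 2.03e-10). mt-Nd4l had 6913, 15689 and 29681 under lithium, against 5703, 11119 and 22241 under vehicle, a log2 difference of 0.50 ± 0.18 (adjusted p = 0.0137). Both were called in the same direction by either count.

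mt-Nd6 encodes a membrane subunit next to ND3 and ND4L and is the only member read from the other strand. It had 940, 1835 and 2891 normalised counts (lowest, median, highest) in the lithium libraries, against 1080, 1650 and 3340 in the vehicle libraries. The highest value of all belonged to a vehicle library, and 0 of 20 lithium libraries exceeded it. Its log2 difference was 0.17 ± 0.12 (adjusted p = 0.185), with a call when HT vehicle male 1 was left out (0.25, adjusted p = 0.0495). Its count was 0.702%, 1.09% and 1.60% (lowest, median, highest) of that of mt-Nd5 in lithium libraries, against 0.850%, 1.18% and 2.04% in vehicle libraries. Because the counting's strand setting is not given in the sources used here, reads of the mt-Nd5 precursor that cross into mt-Nd6 cannot be told apart from mt-Nd6 reads.

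**Figure D2:**
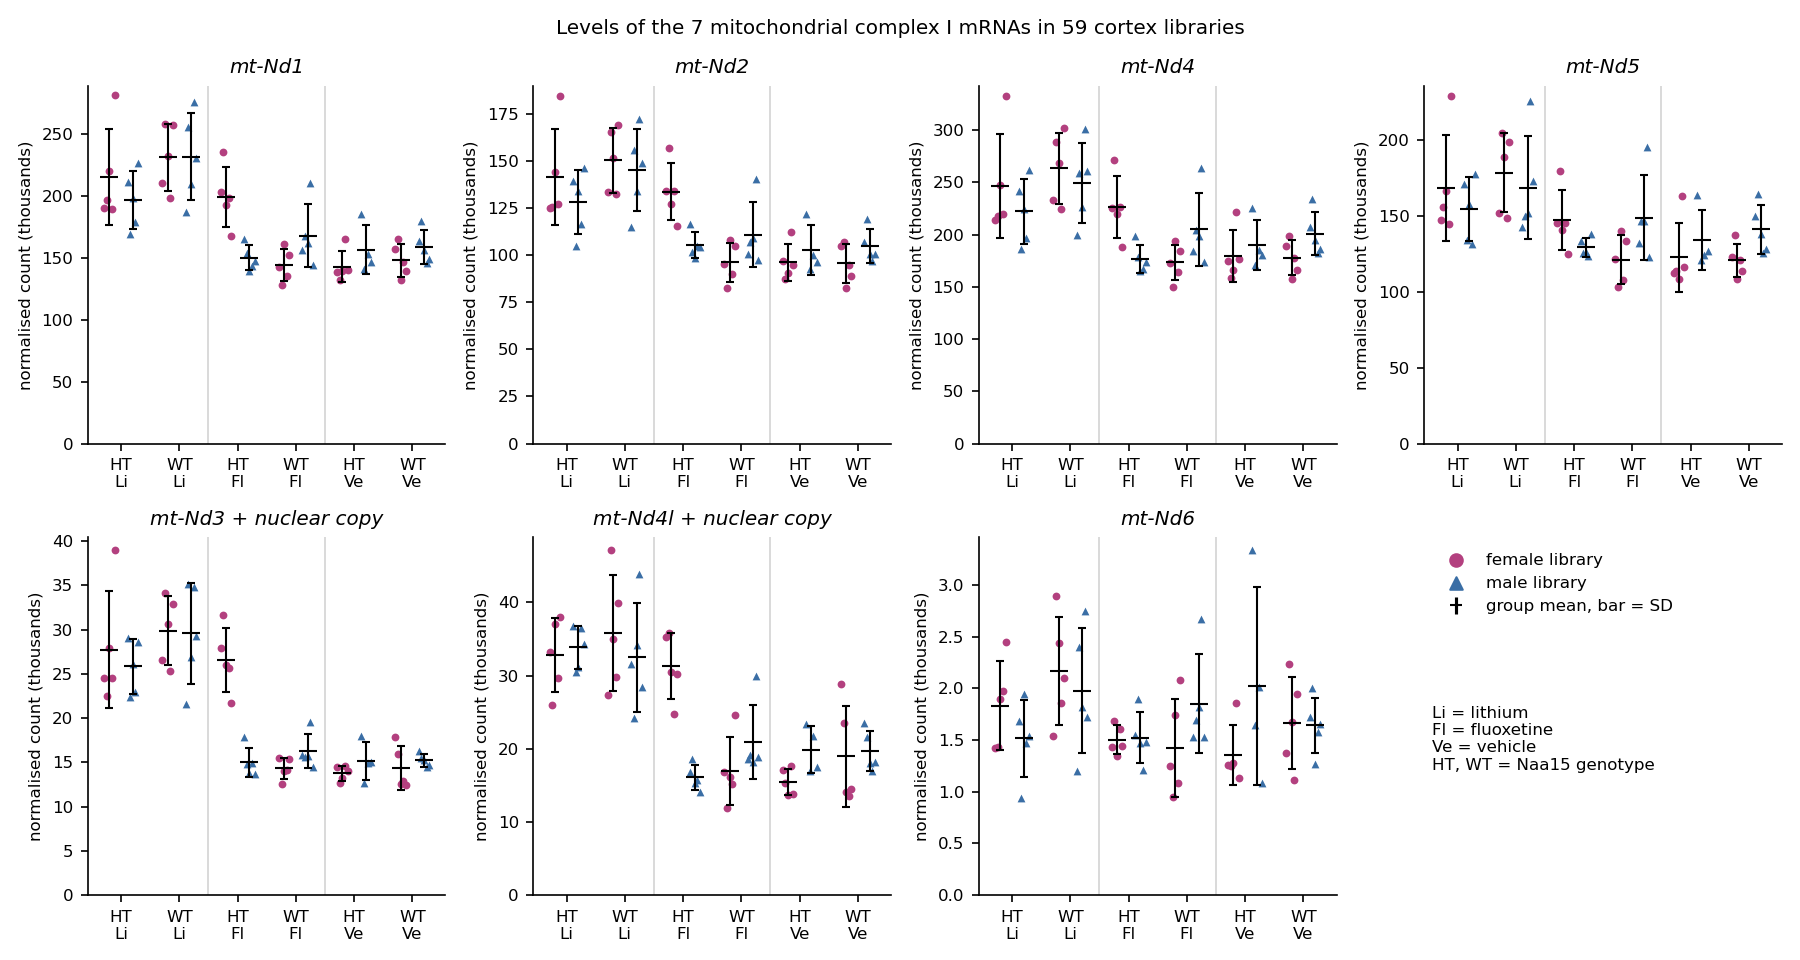
Normalised counts, in units of 1000 (k), of each of the 7 members in every library, by genotype and treatment (Li, lithium; Fl, fluoxetine; Ve, vehicle), females as circles and males as triangles, with the mean and SD of each group; the copy is added for mt-Nd3 and mt-Nd4l. For mt-Nd3 the lithium libraries lie between 21.6 and 39.1 k and the vehicle libraries between 12.5 and 18.0 k, while the mt-Nd6 groups overlap throughout.

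Among the 6 plus-strand members with copies added, the lithium difference was larger the shorter the gene, apart from the order of the 2 shortest. It was 0.94 for mt-Nd3 and 0.88 for mt-Nd4l, the shortest of all, then 0.52 for mt-Nd1, 0.49 for mt-Nd2, 0.38 for mt-Nd4 and 0.36 for mt-Nd5, the longest. As deposited, mt-Nd4l lay below mt-Nd1 and so outside this order. mt-Nd6, of a length between mt-Nd3 and mt-Nd1, lay outside this order at 0.17. Because mt-Nd4l and mt-Nd4 are translated from a shared mRNA, their gene lengths are not lengths of separate RNAs. No test was made of an order over 6 genes.

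**Figure D3:**
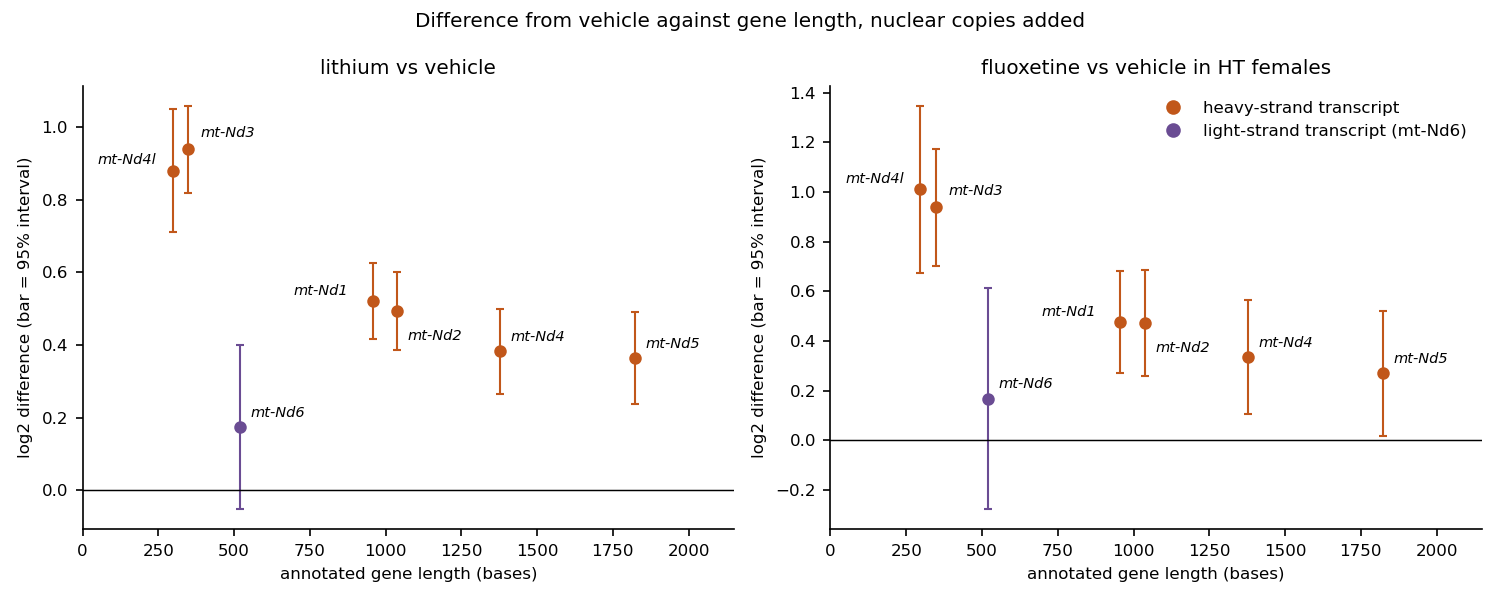
Log2 difference with its 95% interval against gene length in bases for the 7 members, copies added, for lithium against vehicle over all groups and for fluoxetine against vehicle in HT females; mt-Nd6, on the minus strand, is drawn in purple. Under lithium mt-Nd3 lies highest at 0.94 and mt-Nd5 lowest of the plus-strand members at 0.36, and mt-Nd6 lies at 0.17 in both comparisons.

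The composition of whole libraries also moved with treatment. For each library the slopes of log2 values, centred gene by gene, on GC content and on log2 length were fitted together. The fit used the annotated genes that passed the filter, without those of chromosome M. GC content and length were those of each gene's longest annotated transcript. The 25 lithium and HT fluoxetine female libraries had GC slopes of -0.255 to -0.0571 log2 per 10 percentage points, against -0.0627 to 0.191 in the other 34. A negative slope means that genes poor in G and C stood higher in that library. Their length slopes were -0.158 to -0.0246 log2 per doubling of length, against -0.00422 to 0.0880, with no overlap. The members' share of the counts was 2.09% to 3.61% (median 2.54%) in the 25 libraries, against 1.58% to 2.66% (median 1.93%) in the other 34. The members themselves are 33.0% to 41.1% G and C.

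When both slopes were covariates, the lithium calls of 6 members ended and every member's difference turned negative: -0.34 ± 0.18 for mt-Nd1 (adjusted p = 0.231), -0.39 for mt-Nd2 (0.171), -1.13 for mt-Nd3 (0.105), -0.50 for mt-Nd4 (0.109), -1.22 for mt-Nd4l (0.253), -0.34 for mt-Nd5 (0.413) and -1.38 for mt-Nd6, which became a call (0.0228). The standard errors were over 3 times as large as without the slopes. The share of all genes called with the slopes as covariates was not counted, so counts of calls in that fit have no comparison. Treatment and this library profile cannot be told apart here. In bulk tissue, fewer cells of a type and less RNA per cell cannot be told apart either.

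Some cell type markers were also called under lithium, where 32.7% of all genes were called higher and 30.4% lower. Of 8 endothelial and mural markers, 0 were higher and 6 lower under lithium than under vehicle (median log2 difference -0.48). Of 10 neuronal markers, 2 were higher and 6 lower (median -0.18), of 8 astrocyte markers 1 and 4 (-0.12), of 8 oligodendrocyte lineage markers 0 and 1 (-0.04), and of 7 microglial markers 3 and 2 (0.01). The summed endothelial and mural markers ranged from 7844 to 13457 normalised counts (median 9550) in the 25 lithium and HT fluoxetine female libraries and from 8648 to 14540 (median 11153) in the other 34. Within the 19 vehicle libraries that sum correlated with mt-Nd1 at r = 0.86 (Spearman 0.86), and within the 20 lithium libraries at r = 0.72. Within the 20 fluoxetine libraries r was 0.10 (Spearman -0.02). Group means were not removed, and the fluoxetine value pools the HT females with the other groups. Without those females it was not computed, so 0.10 does not describe the relation within the fluoxetine groups. The part of these markers in the lithium difference was not tested.

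**Figure D4:**
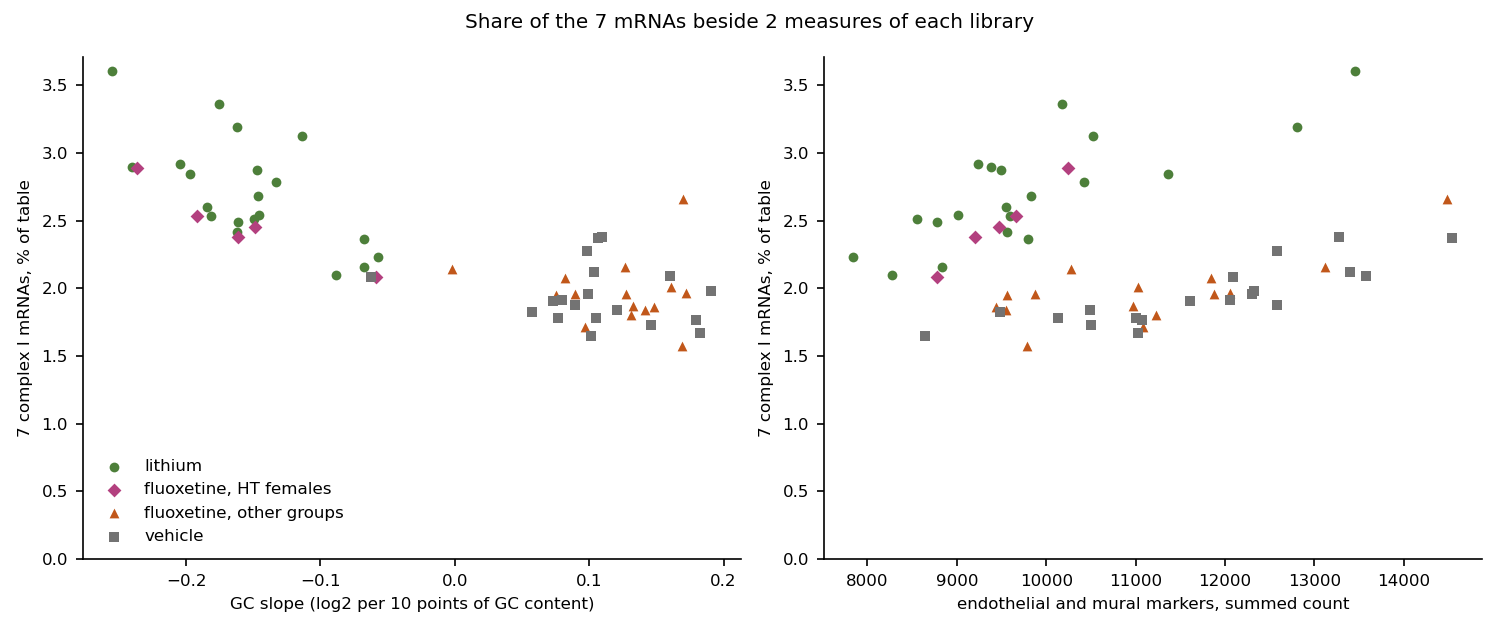
The members' summed share of each library's deposited counts, in percent, against the library's GC slope and against its summed endothelial and mural markers, 1 point per library coloured by treatment, with the 5 HT fluoxetine female libraries marked apart. The lithium and HT fluoxetine female libraries lie at GC slopes of -0.255 to -0.0571 with shares of 2.09% to 3.61%, and the others mostly at higher slopes with shares of 1.58% to 2.66%.

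The members were higher under lithium in both genotypes. In HT mice 5 of 7 members were called higher (25.7% of all genes were), with log2 differences of 0.46 for mt-Nd1, 0.43 for mt-Nd2, 1.20 for mt-Nd3, 0.33 for mt-Nd4 (adjusted p = 0.000913) and 0.33 for mt-Nd5 (adjusted p = 0.00263). In WT mice 5 of 7 were called higher (26.6% of all genes), with 0.59 for mt-Nd1, 0.56 for mt-Nd2, 1.15 for mt-Nd3, 0.43 for mt-Nd4 (adjusted p = 1.56e-05) and 0.40 for mt-Nd5 (adjusted p = 0.000182). mt-Nd4l missed the threshold in each genotype as deposited, at 0.43 in HT (adjusted p = 0.161) and 0.57 in WT (adjusted p = 0.0526), and was 0.93 in HT and 0.83 in WT with its copy added. mt-Nd6 was 0.05 in HT (adjusted p = 0.837) and 0.30 in WT (adjusted p = 0.109). Adjusted for both slopes, mt-Nd1 was -0.39 in HT and -0.28 in WT, and mt-Nd3 -1.09 in HT and -1.18 in WT. The difference between the genotypes' lithium responses was called for 0 of 7 members and for 0% of all genes.

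Split further by sex, 5 members were called higher under lithium in HT females, 3 in HT males (mt-Nd1, mt-Nd2 and mt-Nd3), 5 in WT females and 4 in WT males. The shares of all genes called higher were 18.4% in HT females, 18.6% in HT males, 18.8% in WT females and 21.3% in WT males. The groups with the highest mean of mt-Nd1 were WT lithium males (231.5 ± 35.2 k), WT lithium females (231.0 ± 27.1 k), HT lithium females (215 ± 38.7 k), HT fluoxetine females (199 ± 24.3 k) and HT lithium males (196.5 ± 23.3 k; SD, n = 5 each). Below them came WT fluoxetine males at 168 ± 25.2 k, and the lowest mean was that of HT vehicle females at 142.7 ± 12.7 k. Every pair of neighbours in this order of 12 groups overlapped in range. The same 5 groups were the highest for mt-Nd2, mt-Nd3, mt-Nd4 and mt-Nd4l with copies added, 4 of them were for mt-Nd5 and 3 for mt-Nd6. For mt-Nd3 with its copy, a gap lay between the fifth group, HT lithium males at 25.9 ± 3.11 k, and the next, WT fluoxetine males at 16.3 ± 1.93 k.

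Lithium libraries were also higher than fluoxetine libraries. Against fluoxetine 5 of 7 members were called higher (27.7% of all genes), at 0.41 for mt-Nd1 (adjusted p = 3.31e-09), 0.35 for mt-Nd2, 0.75 for mt-Nd3, 0.33 for mt-Nd4 (adjusted p = 4.06e-06) and 0.29 for mt-Nd5 (adjusted p = 0.000121). mt-Nd4l was 0.33 (adjusted p = 0.108) and mt-Nd6 0.23 (adjusted p = 0.0778). With the copies added mt-Nd3 was 0.68 ± 0.060 (adjusted p = 5.33e-14) and mt-Nd4l 0.72 ± 0.086 (adjusted p = 4.29e-10), which makes 6 of 7 called. Without the 5 HT fluoxetine female libraries the mt-Nd1 difference was 0.51, that of mt-Nd3 with its copy 0.90 and that of mt-Nd4l with its copy 0.93. Adjusted for both slopes, 0 of 7 were called and mt-Nd1 was -0.23. This comparison and that with vehicle share the lithium libraries, and the comparisons of either drug with vehicle share the vehicle libraries.

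Over all groups, 2 of 7 members were called higher under fluoxetine than under vehicle (9.72% of all genes were). These were mt-Nd2 at 0.15 (adjusted p = 0.0497) and mt-Nd3 at 0.43 (adjusted p = 0.0236). Leaving out any of 38 libraries ended the mt-Nd2 call, and leaving out HT vehicle male 2 ended that of mt-Nd3 (adjusted p = 0.0583). Without the 5 HT fluoxetine female libraries 0 of 7 were called, and 2.08% of all genes in either direction. mt-Nd1 had 128, 158 and 235 k (lowest, median, highest) in the 20 fluoxetine libraries and 11 of 20 lay above the vehicle mean of their genotype and sex, with a log2 difference of 0.11 (adjusted p = 0.134).

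Among the 4 combinations of genotype and sex, members were called under fluoxetine in the HT females. In the 5 HT fluoxetine females mt-Nd1 had 203, 235, 193, 198 and 168 k, against 139, 132, 139, 165 and 140 k in the 5 HT vehicle females. No fluoxetine library overlapped the vehicle libraries, though the share of all genes without overlap in these mice was not counted. In HT males it had 165, 154, 139, 143 and 148 k under fluoxetine, against 185, 141, 153 and 146 k under vehicle, and the ranges overlapped. The log2 difference was 0.48 ± 0.11 in HT females (adjusted p = 0.000228) and -0.06 in HT males (adjusted p = 0.931).

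The short members showed the widest separation in the same mice. With its copy, mt-Nd3 had 27.9, 31.7, 26.0, 25.6 and 21.7 k in HT fluoxetine females, against 14.5, 12.6, 13.2, 14.6 and 14.1 k in HT vehicle females, a log2 difference of 0.94 ± 0.12 (adjusted p = 9.65e-09). mt-Nd4l with its copy had 35.3, 35.8, 30.4, 24.7 and 30.3 k in HT fluoxetine females, against 17.0, 15.3, 13.7, 17.6 and 13.8 k in HT vehicle females, a log2 difference of 1.01 ± 0.17 (adjusted p = 3.39e-06). Neither gene's ranges overlapped. In HT males mt-Nd3 with its copy had 17.8, 14.8, 13.8, 15.0 and 13.7 k under fluoxetine, against 18.0, 12.7, 14.9 and 15.1 k under vehicle, a log2 difference of -0.01.

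As deposited, 4 of 7 members were called higher in HT fluoxetine than in HT vehicle females (18.9% of all genes). Besides mt-Nd1 these were mt-Nd2 at 0.47 ± 0.11 (adjusted p = 0.000383), mt-Nd3 at 0.95 ± 0.28 (adjusted p = 0.00453) and mt-Nd4 at 0.34 ± 0.12 (adjusted p = 0.0196). mt-Nd2 did not overlap between the groups, while mt-Nd4 and mt-Nd5 did. mt-Nd4l was 0.46 (adjusted p = 0.327), mt-Nd5 0.27 (adjusted p = 0.0926) and mt-Nd6 0.17 (adjusted p = 0.608). In HT males, WT females and WT males 0 of 7 members were called under fluoxetine, where 0.162%, 0.14% and 0.129% of all genes were called in either direction. At an unadjusted p below 0.05, mt-Nd3 in HT males would count (0.63), and 0 members in WT females or WT males.

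The difference in response between the sexes was itself tested. The response to fluoxetine was larger in HT females than in HT males for mt-Nd1 by 0.53 ± 0.15 log2 (adjusted p = 0.0124), 1 of 7 members, where 6.59% of all genes were called higher. That call ended without HT vehicle male 1 (0.45, adjusted p = 0.0554), and the difference was -0.26 after adjustment for both slopes. mt-Nd2 was 0.43 (adjusted p = 0.0552) and mt-Nd4 0.44 (adjusted p = 0.0755). With copies added, mt-Nd3 was 0.95 ± 0.17 (adjusted p = 0.000135) and mt-Nd4l 1.31 ± 0.25 (adjusted p = 0.000216). The share of all genes called with copies added is not given here.

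With both sexes weighted equally, 3 of 7 members were called higher in HT fluoxetine than in HT vehicle mice (14.8% of all genes), mt-Nd1 at 0.21 (adjusted p = 0.0306), mt-Nd2 at 0.26 (adjusted p = 0.00976) and mt-Nd3 at 0.79 (adjusted p = 0.00173). The mt-Nd1 call ended without HT fluoxetine female 2 (adjusted p = 0.0782), HT fluoxetine male 1 (0.0618), HT vehicle female 2 (0.0562), HT vehicle male 2 (0.0756) or HT vehicle male 4 (0.0606). Without the HT fluoxetine females 0 of 7 were called (0.145% of all genes in either direction) and mt-Nd1 was -0.06. Adjusted for both slopes, mt-Nd1 was -0.27, mt-Nd2 -0.24 and mt-Nd3 -0.50. In WT mice 0 of 7 members were called under fluoxetine, with log2 differences from -0.05 to 0.06, and 1.02% of all genes were called in either direction; 0 members passed at an unadjusted p below 0.05. The difference between the genotypes' fluoxetine responses was called for 0 of 7 members as deposited (20.6% of all genes in either direction) and for mt-Nd3 with its copy at 0.41 ± 0.12 (adjusted p = 0.0107). Without the HT fluoxetine females that value for mt-Nd3 was -0.098 (adjusted p = 0.956).

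**Figure D5:**
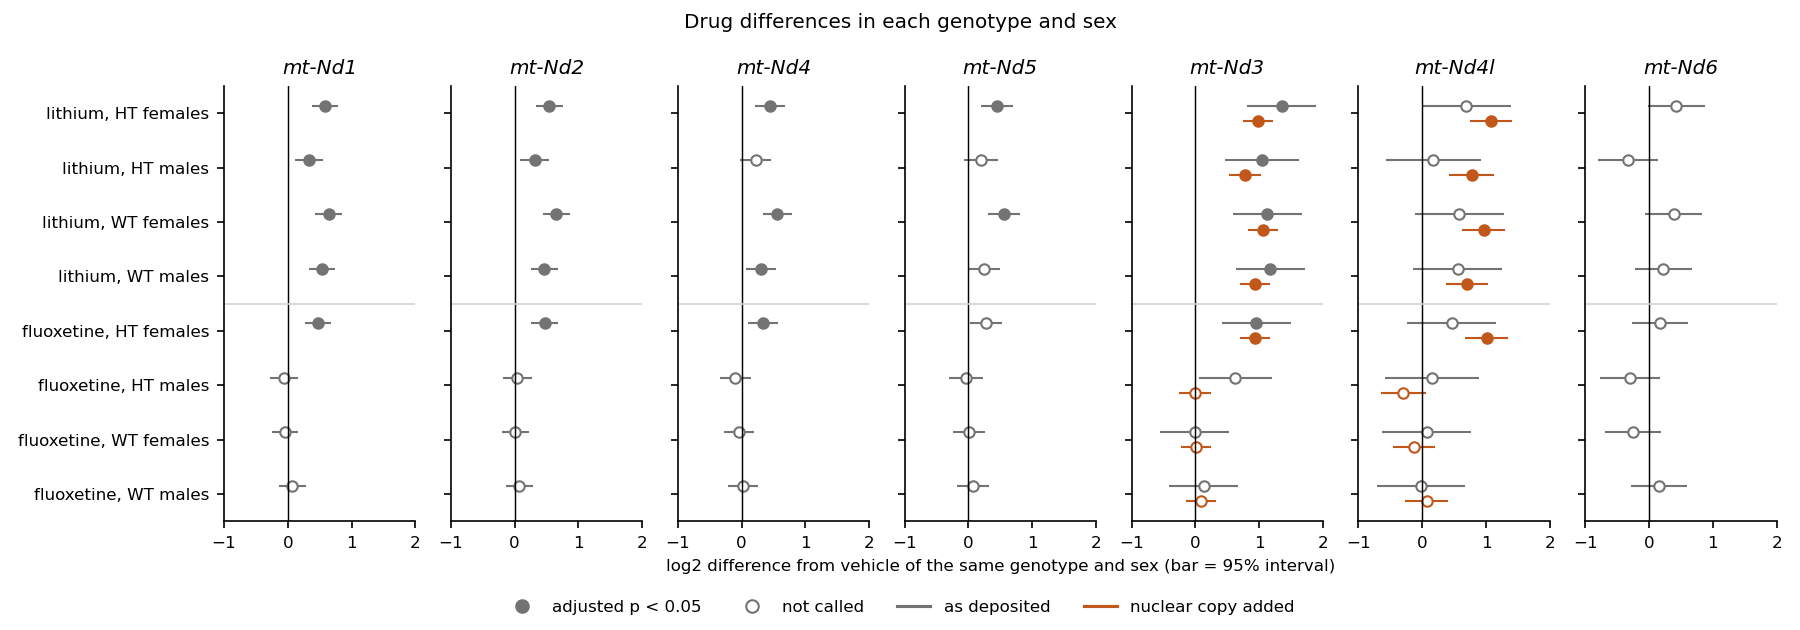
Log2 difference from vehicle with its 95% interval for each member, drug, genotype and sex, as deposited (grey) and with the copy added (orange), filled where the adjusted p was below 0.05. Under fluoxetine the filled points are those of HT females, where mt-Nd1 is 0.48 and mt-Nd3 with its copy 0.94.

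No member was called between the genotypes under vehicle or lithium. HT minus WT log2 differences under vehicle ranged from -0.34 to -0.01, with 0 of 7 called (0.106% of all genes in either direction). Under lithium they ranged from -0.30 to -0.11, also with 0 of 7 called (0.386%). Under fluoxetine mt-Nd2 was called higher in HT mice at 0.21 (adjusted p = 0.033), 1 of 7 members where 15.6% of all genes were, and mt-Nd3 joined it with its copy added (0.38, adjusted p = 0.00031). The mt-Nd2 call ended without HT fluoxetine female 2 (adjusted p = 0.0811), HT fluoxetine male 1 (0.0677), WT fluoxetine female 2 (0.0752) or 4 (0.0536), or WT fluoxetine male 1 (0.0607) or 5 (0.0684). Without all 5 HT fluoxetine females mt-Nd2 was -0.06, mt-Nd3 with its copy was -0.12 (adjusted p = 0.689), and 1.4% of all genes were called in either direction. Adjusted for both slopes, mt-Nd2 was -0.29. Over all treatments 0 of 7 members were called by genotype (14.7% of all genes) and 0 of 7 by sex (8.76%), with female minus male differences of -0.11 to 0.12. Without the 5 HT fluoxetine females both counts stayed at 0, with median differences of -0.11 by genotype and -0.06 by sex. Adjusted for both slopes, 4 members were called lower in HT mice over all treatments and 3 under fluoxetine. The share of all genes called in that fit was not counted. With all libraries kept, edgeR and DESeq2 also called 0 of 7 by genotype under vehicle, under lithium and over all treatments. They called 0 of 7 by sex and in the 2 tests of genotype by drug as well. At an unadjusted p below 0.05 limma would count mt-Nd1 in HT against WT under lithium and mt-Nd3 in genotype by fluoxetine. It would count 0 members in the others of these comparisons.

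The other RNAs of the mitochondrial genome moved with the members. Under lithium 6 of 6 other mitochondrial mRNAs were called higher (median log2 difference 0.60), among them mt-Atp6, a subunit of ATP synthase, at 1.61, mt-Co2 at 1.08 and mt-Co1 at 0.43, subunits of cytochrome c oxidase. Both ribosomal RNAs were higher, mt-Rnr2 at 0.58 and mt-Rnr1 at 0.57. These values are as deposited, and several of these genes also share sequence with nuclear copies. Of the stretches of mt-Atp6, cut as for the members, 99.5% also occur in its copy Gm10925. For mt-Co2, 100% occur in another annotated transcript. The median was 193224 normalised counts for Gm10925, against 19493 for mt-Atp6. After group means were removed, mt-Atp6 correlated with mt-Nd1 at r = 0.33 as deposited and 0.92 with copies added. How far 1.61 and 1.08 depend on the division of reads was not tested. Within groups the log2 SD of mt-Co3 was 0.79 as deposited and 0.15 with copies added, and that of mt-Co2 0.50 and 0.17. The members were then centred on the mean of those 6 mRNAs as deposited. Their lithium differences became -0.26 for mt-Nd1, -0.29 for mt-Nd2, -0.40 for mt-Nd4 and -0.28 for mt-Nd4l. They were -0.42 for mt-Nd5, -0.61 for mt-Nd6 and, as deposited and called higher, 0.40 for mt-Nd3. Thus 6 of 7 lay below the 6 mRNAs' mean difference, and 5 of these were called. No centring was done with the copies of those 6 mRNAs added, so whether members lie below them by such counts was not tested. The share of all genes called after centring was not counted.

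Most of the complex I subunits encoded in the nucleus were also called higher under lithium. Of 37, 27 were called higher and 6 lower (median 0.32, where all genes had 0.02, and where 32.7% of all genes were called higher and 30.4% lower), with Ndufb2 at 0.43, Ndufc2 at 0.42 and Ndufb5 at 0.32, all membrane-arm accessory subunits. Of 15 complex I assembly factors, 12 were higher and 2 lower (median 0.20), with Ndufaf2 at 0.40 and Ndufaf4 at 0.36. Of 19 genes of mitochondrial DNA transcription and replication, 11 were higher and 5 lower (median 0.17). There, the polymerase Polrmt was -0.32 and the protease Lonp1 -0.25, both called lower, while Mterf3 was 0.34. Of 17 genes of mitochondrial RNA processing and stability, 11 were higher and 3 lower (median 0.12), with Slirp, which stabilises mitochondrial mRNAs, at 0.39, Fastkd2 at 0.27 and the transfer RNA processing nuclease Elac2 at -0.28.

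The same nuclear list followed fluoxetine in HT females. There, 24 of 37 nuclear subunits were called higher and 7 lower (median 0.28), where 18.9% of all genes were called higher and 19.5% lower, and 0 of 8 endothelial and mural markers higher and 5 lower (median -0.38). In WT mice 0 of 37 were called in either direction under fluoxetine (1.02% of all genes). Between HT and WT under vehicle 0 of 37 were called (0.106% of all genes). Under fluoxetine 20 of the 37 were higher and 6 lower in HT than in WT mice (median 0.13), against 15.6% of all genes higher and 17.8% lower, and 0 of 8 endothelial and mural markers were higher and 7 lower (median -0.31). Without the HT fluoxetine females, 3 of 37 nuclear subunits were called higher in HT than in WT mice under fluoxetine. There, 1.4% of all genes were called in either direction. Under fluoxetine against vehicle over all groups, 2 of 37 were called higher without those females, and 2.08% of all genes in either direction.

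By Pearson correlation of log2 values over the 59 libraries with the mean of the members, the nuclear genes most like them were Pon2 (0.87), Decr1 (0.87), Gpm6b (0.87), Gpr34 (0.86) and Acadsb (0.86), of 17868 genes compared. After group means were removed they were Gpr34 (0.78), Vcam1 (0.77), Gpm6b (0.77), Luzp2 (0.76) and S1pr1 (0.76). The libraries' composition is common to all these values, which are a description.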

How the data were processed

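Expression was measured by stranded poly(A) RNA-seq (TruSeq Stranded mRNA, per the labels' protocols) in 59 prefrontal cortex libraries. The deposited signal values are counts divided by a size factor per library; the submitters' processing notes name Salmon 0.11.2, DESeq2 1.19.11, R 3.6.0 and GRCm38, and the annotation release is not given in the sources used here. Whole reads were recovered for 100% of values tested, within 0.01 read, up to 1000 reads, though less firmly in the 12 libraries whose size factor lies near 1. Of the 18088 genes, the 17891 with a value of at least 10 in at least 4 libraries were fitted with limma-trend 3.58.1 (R 4.3.3) on log2(value + 1), with 12 group means and 47 residual degrees of freedom, two-sided, with Benjamini-Hochberg adjustment over all tested genes at 0.05. edgeR 4.0.16 and DESeq2 1.42.0 on recovered reads were alternatives. Gene positions, lengths, GC content and transcript sequences came from GENCODE M21 (GRCm38), which matched 18077 genes. Figures were drawn with matplotlib 3.10.9.

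The members and lists were chosen with earlier results of these data known. Named genes were all members, mitochondrial genes where a result turned on them, up to 3 called genes of smallest p per nuclear list, with Polrmt added after its value was seen, and the 5 nuclear genes most correlated with the members. The fit was tested on simulated data. Among the 116 pairs of libraries within a group, no pair was a duplicate. Pairs across groups were not compared. Same-numbered libraries did not deviate together on average (mean residual correlation 0.0104 over 319 pairs), and the fit treats them as unpaired. A mean over all pairs and genes cannot exclude that some libraries are paired.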

Additional observations from a re-analysis of the deposited data

Results flagged for a closer look

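Within groups, the highest or lowest library stood further from the rest than Dixon's 95% limit allows in 12 of 108 sets of 4 or 5 values. For independent sets chance gives about 1 in 20. These sets are not independent, because members move together within groups and mt-Nd3 and mt-Nd4l enter by both counts. The 12 therefore cannot be set against that figure. HT lithium female 5 stood high for mt-Nd3 (7392 normalised counts, the others 2077 to 3579), mt-Nd4 (333233, others 214226 to 247907) and mt-Nd5 (229159, others 144359 to 166348). HT vehicle female 4 stood high for mt-Nd1 (164572, others 131668 to 139779), mt-Nd5 (163158, others 108374 to 116492) and mt-Nd6 (1858, others 1136 to 1278). HT vehicle male 1 stood high for mt-Nd5 (163534, others 121025 to 126982). WT fluoxetine male 4 stood high for mt-Nd2 (140515, others 97142 to 108784) and mt-Nd6 (2676, others 1528 to 1824), and with copies added for mt-Nd3 (19567) and mt-Nd4l (29958, others 18235 to 19131). WT fluoxetine female 5 stood high for mt-Nd4l as deposited (13309, others 9770 to 10746).

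The response to fluoxetine differed between the sexes in HT mice by a test of the difference itself, female minus male. It did so for mt-Nd1 (0.53 log2, adjusted p = 0.0124), where 6.59% of all genes were called higher. With copies added it did so for mt-Nd3 (0.95, adjusted p = 0.000135) and mt-Nd4l (1.31, adjusted p = 0.000216). The mt-Nd1 call ended without HT vehicle male 1 (0.45, adjusted p = 0.0554). With both slopes as covariates its difference turned negative and 0 members were called. The HT fluoxetine females also had slopes like those of lithium libraries, so drug response and library profile cannot be told apart. The fluoxetine response differed between HT and WT mice for mt-Nd3 with its copy added (0.41, adjusted p = 0.0107). That difference was -0.098 (adjusted p = 0.956) without the 5 HT fluoxetine females.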

How the results depend on the processing

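The number of members called under lithium against vehicle, which was 6, ranged from 6 to 7 as each library was left out in turn, from 5 to 6 in WT, was 5 in HT, and ranged from 5 to 6 against fluoxetine. The number under fluoxetine ranged from 0 to 2, in HT mice from 2 to 3, for HT against WT under fluoxetine from 0 to 2, for genotype by fluoxetine from 0 to 1 and for sex by fluoxetine in HT from 0 to 3; it stayed at 0 in the other 6 comparisons.

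Centred on the 6 other mitochondrial mRNAs, differences turned negative: under lithium -0.26 for mt-Nd1, -0.29 for mt-Nd2, -0.40 for mt-Nd4, -0.28 for mt-Nd4l, -0.42 for mt-Nd5 and -0.61 for mt-Nd6; in WT -0.25, -0.28, -0.40, -0.43 and -0.53 for mt-Nd1, mt-Nd2, mt-Nd4, mt-Nd5 and mt-Nd6; in HT -0.27, -0.30, -0.40, -0.40 and -0.68 for the same 5; and for lithium against fluoxetine -0.22, -0.28, -0.30, -0.33 and -0.39. Under fluoxetine mt-Nd2 was -0.0082, in HT mt-Nd1 was -0.12 and mt-Nd2 -0.071, for HT against WT under fluoxetine mt-Nd2 was -0.013, and for sex by fluoxetine in HT mt-Nd1 was -0.11. The calls then numbered 6 under lithium (1 higher, 5 lower), 5 in WT, 6 in HT and 5 against fluoxetine, mostly lower, and 0 under fluoxetine, for HT against WT under fluoxetine and for sex by fluoxetine. The 6 mRNAs were taken as deposited, without their nuclear copies, and the share of all genes called was not counted.

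With GC and length slopes as covariates, differences under lithium were -0.34, -0.39, -1.13, -0.50, -1.22, -0.34 and -1.38 for mt-Nd1, mt-Nd2, mt-Nd3, mt-Nd4, mt-Nd4l, mt-Nd5 and mt-Nd6. In WT they were -0.28, -0.34, -1.18, -0.45, -0.31 and -1.31 and in HT -0.39, -0.44, -1.09, -0.54, -0.37 and -1.45 for these genes without mt-Nd4l; against fluoxetine they were -0.23, -0.31, -0.98, -0.33 and -0.23 for mt-Nd1 to mt-Nd5. Under fluoxetine mt-Nd2 was -0.078 and mt-Nd3 -0.16; in HT mt-Nd1 was -0.27, mt-Nd2 -0.24 and mt-Nd3 -0.50; for HT against WT under fluoxetine mt-Nd2 was -0.29, mt-Nd3 -0.92 and mt-Nd4 -0.41; for sex by fluoxetine mt-Nd1 was -0.26. Calls numbered 1 under lithium, in WT, in HT, under fluoxetine and for fluoxetine in HT, 0 against fluoxetine and for sex by fluoxetine, 3 for HT against WT under fluoxetine and 4 over all treatments. The 3 and the 4 calls between the genotypes were all lower in HT mice. The shares of all genes called in this fit were not counted.

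Without the HT fluoxetine females, fluoxetine in HT gave -0.056 for mt-Nd1, HT against WT under fluoxetine -0.064 for mt-Nd2, and, copies added, mt-Nd3 was -0.011 in HT; calls numbered 0 in all 3 fluoxetine comparisons. Fluoxetine against vehicle had 1 call with 5 added before the log, with no filter, by quantile normalisation, without the intensity trend, with the replicate block and in edgeR, and fluoxetine in HT had 1 by quantile normalisation. HT against WT under fluoxetine had 2 by quantile normalisation, by scaling to genes outside chromosome M, with only the groups compared and with copies added. Genotype by fluoxetine had 1 with a mean of at least 100, scaled to genes outside chromosome M, with only the groups compared and with copies added. Sex by fluoxetine in HT had 2 with a mean of at least 100 or only the groups compared, and 3 when scaled, with copies added and in DESeq2. The replicate block changed no other count by more than 1.5 times. The cause of these changes was not tested. Single members under the other settings kept direction and side of the threshold in 1543 results, became calls in 41, lost them in 18 and turned in the 64 given above. The lowest counts of a member were those of mt-Nd6 (940 to 3340) and, as deposited, mt-Nd3 (775 to 8017).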
